A study of Mus musculus with 6 samples.

Results

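The nuclear genes of respiratory complex I were examined in RNA-seq libraries of mouse blastocysts that had grown in culture or in the mother. Members were all rows of the deposited count table whose symbol begins with Nduf and lacks the pseudogene suffix -ps, which gave 51 of 49993 rows. They comprise 37 subunits, 2 genes of the Ndufa4 family, 8 assembly factors (Ndufaf1 to Ndufaf8) and 4 gene copies (Ndufb4b, Ndufb4c, Ndufs6b and Ndufa11b). Of these, 50 passed the filter on low counts, and Ndufa4l2 had 0 counts in all 6 libraries. RefSeq types 49 of the 51 members as protein coding, 1 as a transcribed pseudogene and 1 as a pseudogene, so the rule does not remove every pseudogene.

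The in vitro group held 3 libraries of embryos that were collected from oviducts as zygotes 19 to 21 h after human chorionic gonadotrophin (hCG), freed of cumulus cells and grown in KSOM medium at 37 °C with 5% CO2 until they were blastocysts. The in vivo group held 3 libraries of blastocysts flushed from the uterus on day 3.5. Both groups come from superovulated females, primed with pregnant mare serum gonadotrophin (10 IU), given hCG (10 IU) after 48 h and then mated naturally. No source used here states the strain, the age or the number of mothers or litters behind the libraries, and p-values therefore measure only the spread between these libraries. The study asked what goes with the shortening of telomeres in cultured embryos and named Sirt6, an enzyme that needs NAD+. The sample descriptions speak of a lone inner cell mass per library, the tissue label of blastocysts and the cell type label of embryonic stem cells. Markers of the outer layer, the trophectoderm, were present in all 6 libraries: the summed level of 10 such genes was 1055, 1807 and 1599 CPM (counts scaled to a common library size) in vitro, against 1400, 780.0 and 679 CPM in vivo. Summed markers of the epiblast and inner cell mass (9 genes) were 964, 559 and 413 CPM in vitro and 655, 716 and 537 CPM in vivo. Those of the primitive endoderm (9 genes) were 1125, 791 and 671 CPM in vitro and 371, 307 and 659 CPM in vivo. Of the 6 cumulus cell markers 4 were at 0 in all libraries, with a summed level of 0 to 0.651 CPM, and of the 6 markers of uterine epithelium and blood 4 were at 0, with a summed level of 0 to 1.10 CPM.

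Complex I, or NADH:ubiquinone oxidoreductase, is the entry point of electrons into the respiratory chain of mitochondria. Its matrix arm takes electrons from NADH, which leaves NAD+, and passes them over iron-sulphur clusters to ubiquinone, while its membrane arm pumps protons. Most subunits are encoded in the nucleus and imported, the membrane core is encoded in the mitochondrial genome, and dedicated assembly factors join the modules without staying in the finished enzyme. Mouse embryos raise their use of oxygen as they form a blastocyst and pump fluid into its cavity.

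The libraries held 6918288, 12735551 and 9212405 counts in vitro and 9174789, 10240704 and 17643429 counts in vivo. Counts of Rn18s-rs5, a ribosomal RNA gene, made up 35.8 to 40.4% of the total in vitro and 16.7 to 41.7% in vivo, and the 51 members took 0.246 to 0.360% in vitro and 0.250 to 0.487% in vivo. A single other gene, Lars2, made up 12.5, 2.93 and 4.58% of the total in vitro and 0.520, 0.522 and 1.07% in vivo. CPM were computed on library totals scaled by trimmed means (TMM). A count of 0 allows up to 3 counts, or 0.215 to 0.525 CPM depending on the library, which covers counting error only. In bulk samples such as these, fewer cells of a type and less RNA per cell cannot be told apart.

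Transcripts of complex I genes were present at similar levels in both groups. Summed over all members they reached 2970, 3356 and 3215 CPM in vitro, against 3486, 3215 and 3164 CPM in vivo. The group means were 3181 ± 195 CPM in vitro and 3288 ± 173 CPM in vivo (SD, n = 3 each), a ratio of 0.967, and the groups overlapped. With edgeR's quasi-likelihood test (two-sided, Benjamini-Hochberg adjustment over all 14301 genes tested, threshold 0.05), 0 of the 50 members passed, and neither did any other gene (0% of all genes tested). The smallest adjusted p among members was 0.485. DESeq2 called 0 members at a background of 2.99% of 15796 genes, with a smallest adjusted p of 0.272. Limma voom with sample weights also called 0 members at a background of 0.713%, with a smallest adjusted p of 0.189.

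At an unadjusted p below 0.05, edgeR picked out 2 members, Ndufs1 and Ndufb1, both higher in vitro, while 10.2% of all genes tested were below it. The in vitro and in vivo values did not overlap for 6 of the 50 members, against 19.3% of all genes. Of these, Ndufs1 and Ndufb6 were higher in vitro (background 9.27%), and Ndufaf8, Ndufb10, Ndufv1 and Ndufs8 were lower in vitro (background 10.0%). These counts stand at or below their backgrounds. Log2 fold changes, in vitro over in vivo, ran from −0.93 to 1.07, with 26 above 0 and 24 below. The median log2 fold change was 0.04 over the members and −0.01 over all genes tested. Scaling by library totals alone gave −0.35 over the members and −0.31 over all genes, with 7 members above 0 and 43 below, so the signs are read relative to the median gene.

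The fold changes of the members were small and their estimates comparatively tight. Their level was also higher: the median of the mean CPM was 61.0 over the members and 13.0 over all genes tested. It was 28.6 over the genes with a mean of at least 10 CPM. The comparisons that follow are therefore not matched for level. The median absolute log2 fold change was 0.279 over the members, 0.629 over all genes tested and 0.511 over the 8156 genes with a mean of at least 10 CPM. A change beyond 2-fold was estimated for 1 of 50 members (Ndufb1), or 2%, against 30.8% of all genes. The share was 21.0% of the genes with at least 10 CPM and 7.5% of the nuclear subunits of complexes II to V. The 95% interval of the fold change lay wholly within 2-fold in either direction for 19 of the 50 members, or 38%, against 4.43% of all genes and 7.77% of the genes with at least 10 CPM. For those 19 genes the interval of this fit bounds the difference between groups, whereas for the others it does not exclude a 2-fold difference. The bound holds for TMM scaling. Ndufs7, 1 of the 19, moved from 0.01 to 0.50 with an offset for gene length. Ndufv1, another of them, moved from −0.30 to −0.60 with library totals alone. Nuclear subunits of complexes II to V, 40 genes taken as a comparison, gave 16 genes within 2-fold, or 40%, which is a like share.

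**Figure D1:**
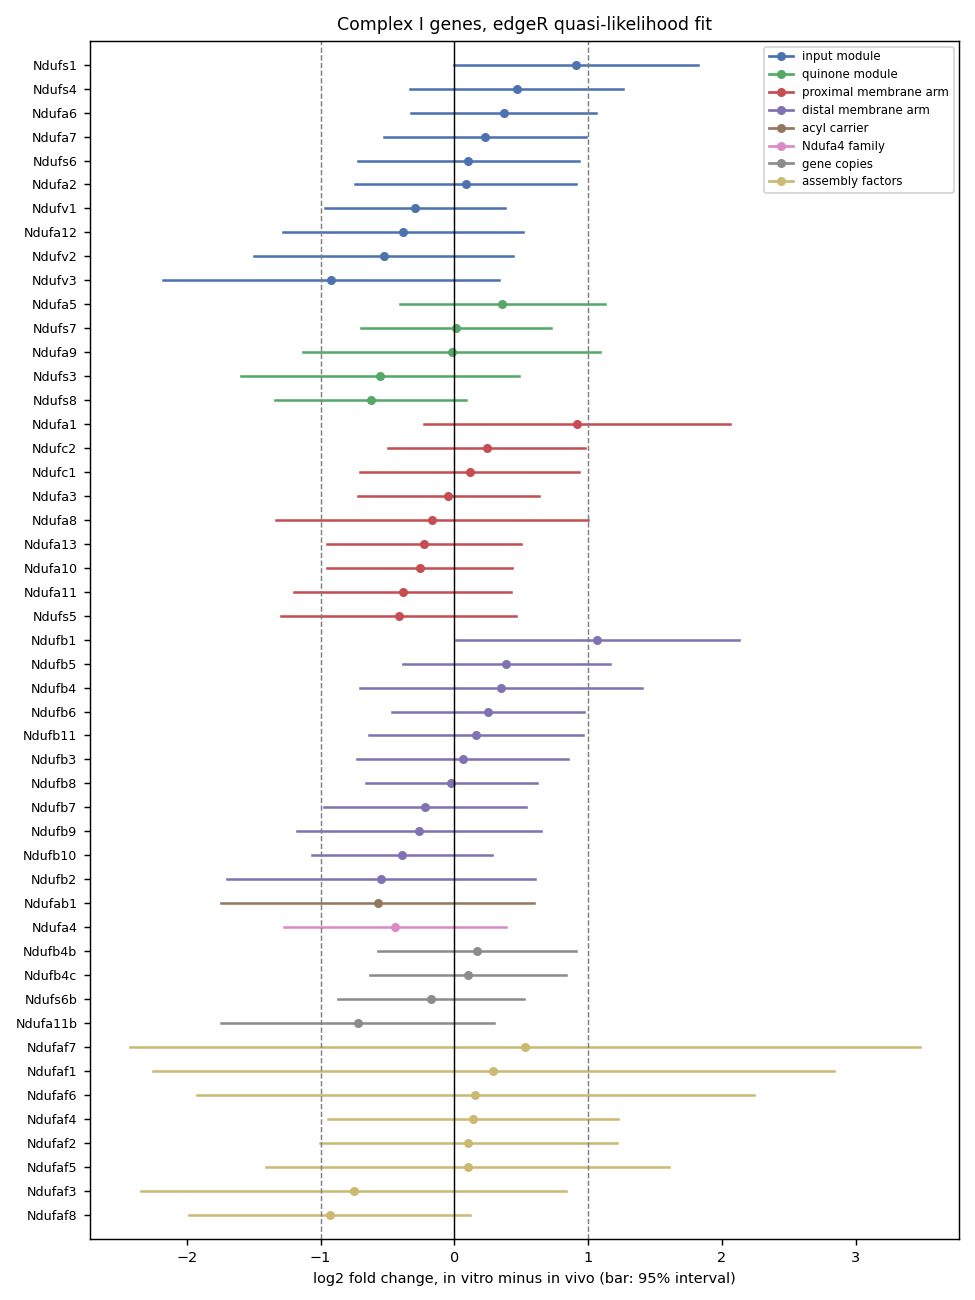
Log2 fold change (horizontal axis, in vitro minus in vivo) of 49 of the 50 tested complex I genes, with its 95% interval from the edgeR fit, coloured by role; dashed lines mark a 2-fold difference. Most points lie between the dashed lines, and the widest bars belong to the assembly factors Ndufaf7, Ndufaf1 and Ndufaf6.

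The spread between libraries of a group was also small, in a comparison again not matched for level. The median pooled within-group SD of log2 CPM was 0.360 over the members, 0.354 over the 37 subunits, 0.391 over complexes II to V and 0.911 over the 8 assembly factors. It was 0.801 over all genes tested and 0.598 over those with at least 10 CPM. The order of the 51 members by CPM was alike between libraries, with Spearman correlations across genes of 0.705 to 0.955. CPM are not divided by gene length, which is the same for a gene in every library, and genes are not independent replicates.

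The input module, the tip of the matrix arm that oxidises NADH, has 10 subunits here. Its summed level was 697, 758 and 829 CPM in vitro and 745, 646 and 822 CPM in vivo, with overlapping groups. Ndufv1 (chr19:4007499-4012755, minus strand, GRCm38), the core subunit that binds NADH and the flavin FMN, had 58.2, 58.9 and 57.8 CPM in vitro and 69.6, 68.7 and 76.6 CPM in vivo. Every in vitro value lay below every in vivo value, and the within-group SD of 0.0612 on the log2 scale was the smallest among the members. The difference itself was small, with a log2 fold change of −0.30 ± 0.30 (SE) and an edgeR adjusted p of 0.783.

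Ndufs1 (chr1:63143592-63176822, minus strand), the largest core subunit, which carries iron-sulphur clusters, had 55.6, 67.2 and 113 CPM in vitro and 54.7, 41.0 and 29.996 CPM in vivo. The groups met almost at their edges, since the lowest in vitro and the highest in vivo library differed by under 1 CPM. Its log2 fold change was 0.91 ± 0.40 (SE; 95% interval 0.00 to 1.82), with an edgeR adjusted p of 0.489. Leaving out 1 library at a time gave 0.55 to 1.13, the low end without in vitro replicate 3. Reads of Ndufs1 cannot be told from those of Ino80dos on the opposite strand over 8.33% of its exon length.

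Ndufv2, the remaining core subunit of the input module, had 50.9, 43.7 and 59.6 CPM in vitro and 98.0, 89.8 and 34.7 CPM in vivo. In vivo replicate 3 was thus below all in vitro libraries while the other in vivo libraries were above them, and the log2 fold change was −0.53 ± 0.43 (adjusted p = 0.724). It was −0.86 (adjusted p = 0.297) without in vivo replicate 3, −0.30 if replicate 1 of that group was left out and −0.06 with an offset for gene length. Among accessory subunits, Ndufv3 had 12.9, 65.3 and 45.3 CPM in vitro and 71.1, 55.1 and 109 CPM in vivo, with the low value in in vitro replicate 1. Its log2 fold change was −0.92 ± 0.56 (adjusted p = 0.613) and ranged from −1.44 to −0.49 when 1 library was left out.

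Ndufs4, an accessory subunit whose loss in mice is a model of Leigh syndrome, had 56.7, 57.9 and 88.6 CPM in vitro and 60.1, 40.0 and 47.1 CPM in vivo (log2 fold change 0.47 ± 0.35, adjusted p = 0.698). Ndufa6, which holds an LYR motif, had 71.4, 91.1 and 101 CPM in vitro and 72.1, 70.6 and 61.4 CPM in vivo (0.37 ± 0.31, adjusted p = 0.734). Ndufs4 overlapped between groups through in vivo replicate 1 and Ndufa6 through in vitro replicate 1. Ndufa2, with a thioredoxin-like fold, had 179, 130.5 and 110 CPM in vitro and 108, 97.0 and 190 CPM in vivo, Ndufa7 had 80.3, 129 and 137 CPM in vitro and 102, 79.0 and 115 CPM in vivo, and the zinc-binding Ndufs6 had 109, 88.5 and 68.6 CPM in vitro and 68.96, 61.2 and 117 CPM in vivo. These 3 genes overlapped between groups and had intervals within 2-fold. Ndufa12, related to the assembly factor Ndufaf2, had 23.4, 25.7 and 47.4 CPM in vitro and 41.1, 43.7 and 41.1 CPM in vivo.

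The quinone module, which hands electrons to ubiquinone, summed to 371, 344 and 285 CPM in vitro and 377, 359 and 292 CPM in vivo. Ndufs8 (chr19:3908863-3912774, minus strand), a core subunit with iron-sulphur clusters, had 48.1, 53.6 and 44.0 CPM in vitro and 69.3, 88.1 and 67.3 CPM in vivo. All 3 in vitro values lay below all 3 in vivo values. The log2 fold change was −0.62 ± 0.32 (95% interval −1.34 to 0.09), with an edgeR adjusted p of 0.539, and ranged from −0.72 to −0.50 when 1 library was left out. It was −0.15 with an offset for gene length and −0.94 with library totals alone.

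Ndufs3, another core subunit of this module, had 13.5, 12.9 and 17.8 CPM in vitro and 17.4, 21.9 and 25.7 CPM in vivo, with a log2 fold change of −0.56 ± 0.46 (adjusted p = 0.730); the groups overlapped by less than 1 CPM. Ndufs7, which holds the cluster next to ubiquinone, had 82.7, 86.5 and 80.3 CPM in vitro and 104, 79.0 and 64.6 CPM in vivo. Its log2 fold change was 0.01 ± 0.32 (95% interval −0.70 to 0.72), and its sign was negative under 6 of 19 alternative settings. The accessory Ndufa5 had 104, 69.9 and 60.7 CPM in vitro and 52.5, 61.2 and 69.5 CPM in vivo. Ndufa9, which binds NADPH, had 65.8, 53.1 and 32.3 CPM in vitro and 69.7, 61.9 and 21.6 CPM in vivo, with the lowest value in in vivo replicate 3.

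**Figure D2:**
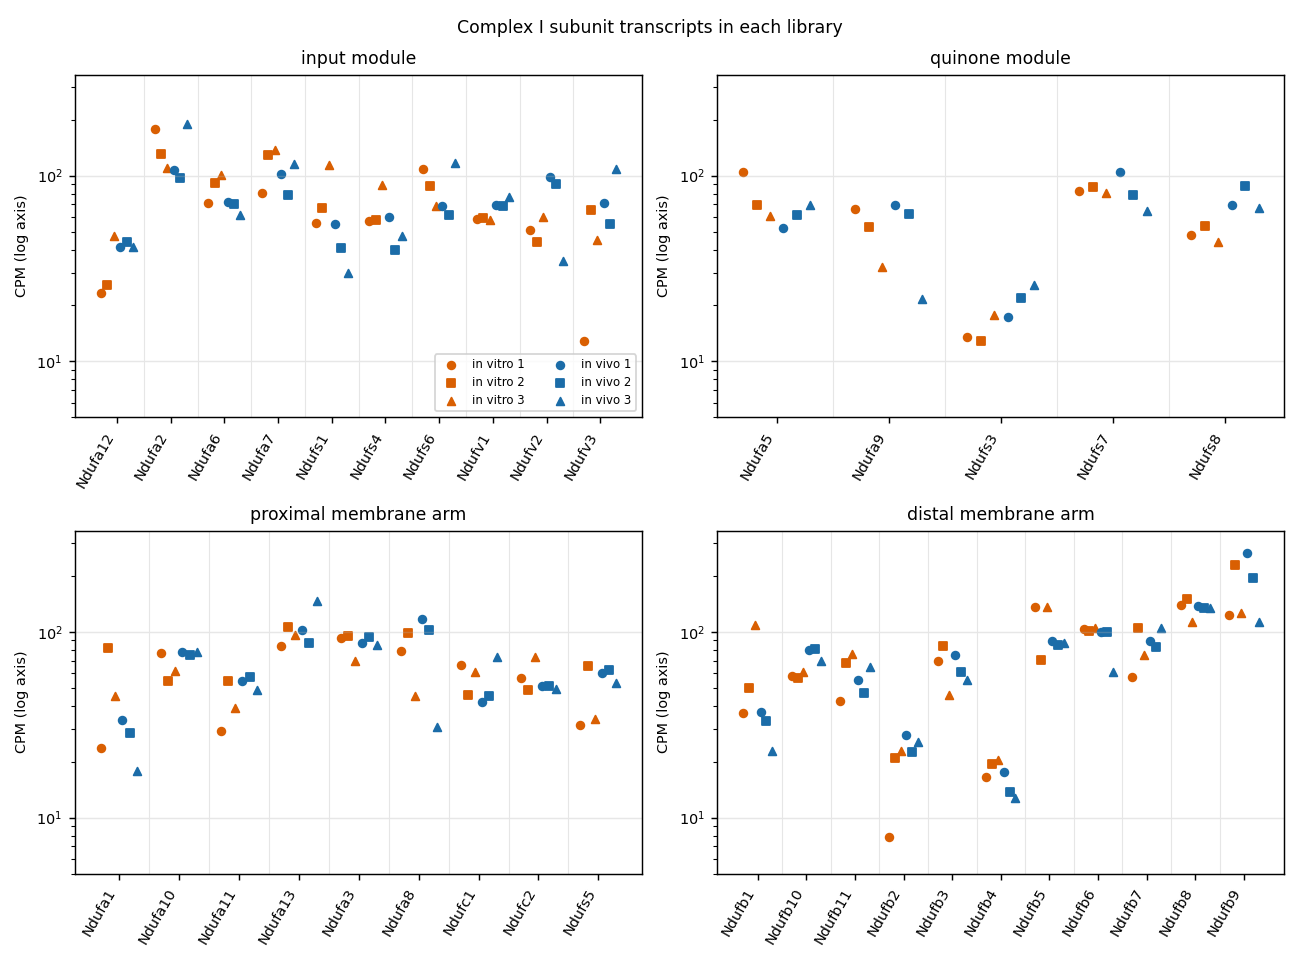
Level in CPM (vertical log axis) of subunits of each module, with 1 symbol per library, in vitro libraries left of in vivo libraries for each gene. Most genes lie between 30 and 150 CPM in every library; Ndufv3 and Ndufb2 are low in in vitro 1, and Ndufv2, Ndufa8 and Ndufa9 are low in in vivo 3.

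The proximal part of the membrane arm summed to 538, 652 and 524 CPM in vitro and 625, 603 and 582 CPM in vivo over 9 genes. The X-linked Ndufa1 (chrX:37187588-37191238, minus strand), a small accessory subunit, had 23.6, 82.0 and 44.9 CPM in vitro and 33.4, 28.7 and 17.9 CPM in vivo, with a log2 fold change of 0.92 ± 0.51 (adjusted p = 0.583). Its highest value was in in vitro replicate 2, the library in which Xist, the noncoding RNA of the inactive X, stood at 548 CPM, against 0.625 to 24.4 CPM in the other 5 libraries. Without in vitro replicate 2 the log2 fold change of Ndufa1 was 0.35, and the part of sex or X dosage in it was not tested. The other X-linked member, Ndufb11 of the distal arm, had 42.3, 67.7 and 76.0 CPM in vitro and 54.7, 46.9 and 64.6 CPM in vivo (0.16 ± 0.36, interval within 2-fold). Over 29.0% of its exon length Ndufb11 is shared with Rbm10 on the opposite strand, as is 11.5% of Ndufa2 with Tmco6, and such reads cannot be told apart.

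Ndufa3 and Ndufa10 were steady members of the proximal arm. Ndufa3 had 92.3, 95.3 and 69.4 CPM in vitro and 86.6, 93.7 and 85.3 CPM in vivo, and Ndufa10, related to nucleoside kinases, had 76.4, 54.6 and 61.6 CPM in vitro and 78.0, 74.6 and 77.7 CPM in vivo. Ndufa13, also known as GRIM-19, had 83.9, 107 and 96.5 CPM in vitro and 102, 87.4 and 146 CPM in vivo, but 29.6% of its exon length is shared with Tssk6 on the opposite strand. Ndufc1 had 66.3, 45.9 and 60.9 CPM in vitro and 41.9, 45.2 and 72.9 CPM in vivo, and Ndufc2 had 56.5, 48.7 and 73.0 CPM in vitro and 50.8, 51.0 and 49.0 CPM in vivo. The intervals of these 5 genes were within 2-fold. Ndufa8, a disulphide-bonded subunit on the intermembrane space side, had 78.9, 98.8 and 45.3 CPM in vitro and 117, 102 and 30.9 CPM in vivo. Ndufa11 had 29.2, 54.1 and 38.8 CPM in vitro and 54.1, 57.4 and 48.5 CPM in vivo, and Ndufs5 had 31.3, 65.7 and 34.0 CPM in vitro and 59.8, 62.3 and 52.9 CPM in vivo. In both of these genes in vitro replicates 1 and 3 were below every in vivo library and in vitro replicate 2 was not.

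The distal part of the membrane arm summed to 790.1, 953 and 890 CPM in vitro and 975, 856 and 752 CPM in vivo over 11 genes. Ndufb1 (chr12:101968096-101975738, minus strand), a small accessory subunit, had the largest fold change of all members: it stood at 36.5, 49.8 and 108 CPM in vitro and at 37.2, 33.0 and 22.8 CPM in vivo. The groups overlapped by less than 1 CPM. Its log2 fold change was 1.07 ± 0.47 (95% interval 0.01 to 2.13), with an edgeR adjusted p of 0.485 and a value of 0.48 without in vitro replicate 3. Ndufb10 had 58.1, 56.6 and 61.0 CPM in vitro and 79.4, 80.6 and 69.9 CPM in vivo. Its groups did not overlap, with a log2 fold change of −0.39 ± 0.30 (adjusted p = 0.701) and a within-group SD of 0.0887 on the log2 scale.

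Ndufb8 showed how close the groups could be, with 139, 150.2 and 113 CPM in vitro and 138, 135 and 135 CPM in vivo (log2 fold change −0.02 ± 0.28, 95% interval −0.66 to 0.62). Ndufb6 had 103, 101 and 105 CPM in vitro and 99.96, 99.7 and 61.0 CPM in vivo, so its lack of overlap rested on a margin of about 1 CPM to in vivo replicates 1 and 2. Ndufb5 had 137, 70.5 and 136 CPM in vitro and 89.6, 85.3 and 86.8 CPM in vivo (0.39 ± 0.34, adjusted p = 0.746), with in vitro values on both sides of the in vivo ones. Ndufb9, an LYR-motif subunit, had the highest level per exon length of the distal arm and stood at 123, 228 and 126 CPM in vitro and 266, 195 and 114 CPM in vivo. Ndufb2 had 7.87, 20.9 and 22.9 CPM in vitro and 27.8, 22.5 and 25.6 CPM in vivo. In vitro replicate 1 stood well below the other 5 libraries. Ndufb3 had 69.8, 83.7 and 45.7 CPM in vitro and 75.0, 60.8 and 55.1 CPM in vivo, and Ndufb7 had 57.4, 105 and 75.1 CPM in vitro and 89.6, 83.2 and 104 CPM in vivo, both with intervals within 2-fold.

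Ndufab1, the mitochondrial acyl carrier protein, which also serves fatty acid and lipoic acid synthesis, had 10.8, 17.7 and 31.1 CPM in vitro and 23.7, 23.1 and 42.1 CPM in vivo (−0.57 ± 0.52, adjusted p = 0.755). Ndufa4, first purified with complex I and today placed in complex IV, had 125, 81.1 and 153 CPM in vitro and 149, 118 and 222 CPM in vivo (−0.44 ± 0.37, adjusted p = 0.730). Its paralog Ndufa4l2, known as a gene that hypoxia induces, had 0 counts in every library of both groups.

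**Figure D3:**
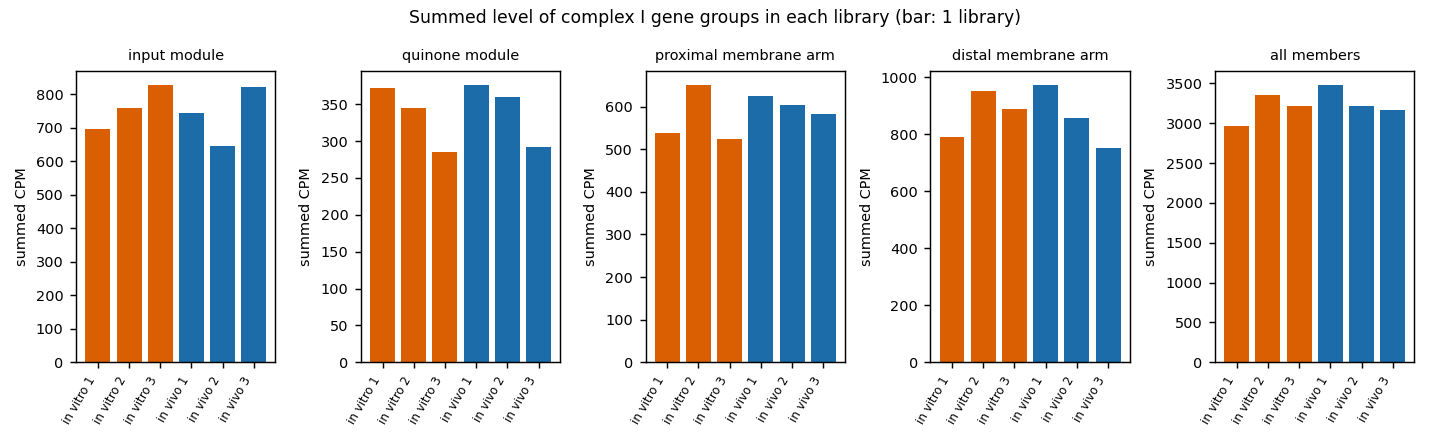
Summed CPM of the 4 modules and of all 51 members, with 1 bar per library, in vitro bars left of in vivo bars. The groups overlap in each panel; the sums over all members lie between 2970 and 3356 CPM in vitro and between 3164 and 3486 CPM in vivo.

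The assembly factors varied more between libraries than the subunits. They were also lower, with a median of the mean CPM of 17.4, against 62.8 for the 37 subunits. Their sum was 143, 114 and 152 CPM in vitro, against 165, 171 and 78.5 CPM in vivo, with the lowest value in in vivo replicate 3. In that library 3 factors were nearly missing. Ndufaf1, a factor of the membrane arm that works with Acad9 and Ecsit, had 21.9, 14.2 and 23.0 CPM in vitro and 22.6, 25.5 and 0.143 CPM (2 counts) in vivo. Ndufaf7, a methyltransferase, had 23.1, 10.6 and 9.24 CPM in vitro and 14.0, 15.8 and 0 CPM in vivo. Ndufaf6 had 8.39, 5.85 and 12.9 CPM in vitro and 13.9, 9.50 and 0.931 CPM (13 counts) in vivo. These 3 genes had the widest intervals of all members, for Ndufaf7 from −2.43 to 3.48 on the log2 scale.

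Of the 7170 genes with at least 5 CPM in each of the other 5 libraries, 119 (1.66%) were below 1 CPM in in vivo replicate 3, among them these 3 of 49 members. In the other libraries the same count gave 0.0148 to 1.02% of genes and 0 members. In vivo replicate 3 also held the lowest value of 18 of the 50 members, or 36%, against 25.8% of all genes tested. Its total of 17643429 counts was the highest of the 6 libraries, and ribosomal RNA took 47.8% of it, more than in the other 5 (18.4 to 42.1%). In vitro replicate 1 had the lowest total, 6918288 counts, and Lars2 took 12.5% of it, more than in any other library. It held the lowest value of 11 members, or 22%, against 23.5% of all genes tested. The part of depth, of ribosomal RNA or of Lars2 in the low values of either library was not tested.

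Ndufaf8 (chr11:120098934-120100424, plus strand), the partner of Ndufaf5, had 10.7, 15.0 and 10.3 CPM in vitro and 20.0, 25.5 and 23.3 CPM in vivo. Every in vitro library lay below every in vivo library. Its log2 fold change of −0.93 ± 0.47 (95% interval −1.99 to 0.12; adjusted p = 0.539) was the lowest of all members and ranged from −1.14 to −0.83 when 1 library was left out. Ndufaf5, which hydroxylates Ndufs7, had 10.5, 14.8 and 52.2 CPM in vitro and 37.6, 14.7 and 20.0 CPM in vivo, and so did not share the separation of its partner. Ndufaf3 and Ndufaf4 act together on the quinone module. Ndufaf3 had 7.69, 11.9 and 4.82 CPM in vitro and 14.0, 21.7 and 5.44 CPM in vivo, and Ndufaf4 had 40.7, 20.0 and 26.8 CPM in vitro and 28.0, 36.4 and 15.0 CPM in vivo. Ndufaf2, a factor of the late stage, had 19.8, 21.4 and 12.5 CPM in vitro and 14.5, 21.9 and 13.6 CPM in vivo.

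**Figure D4:**
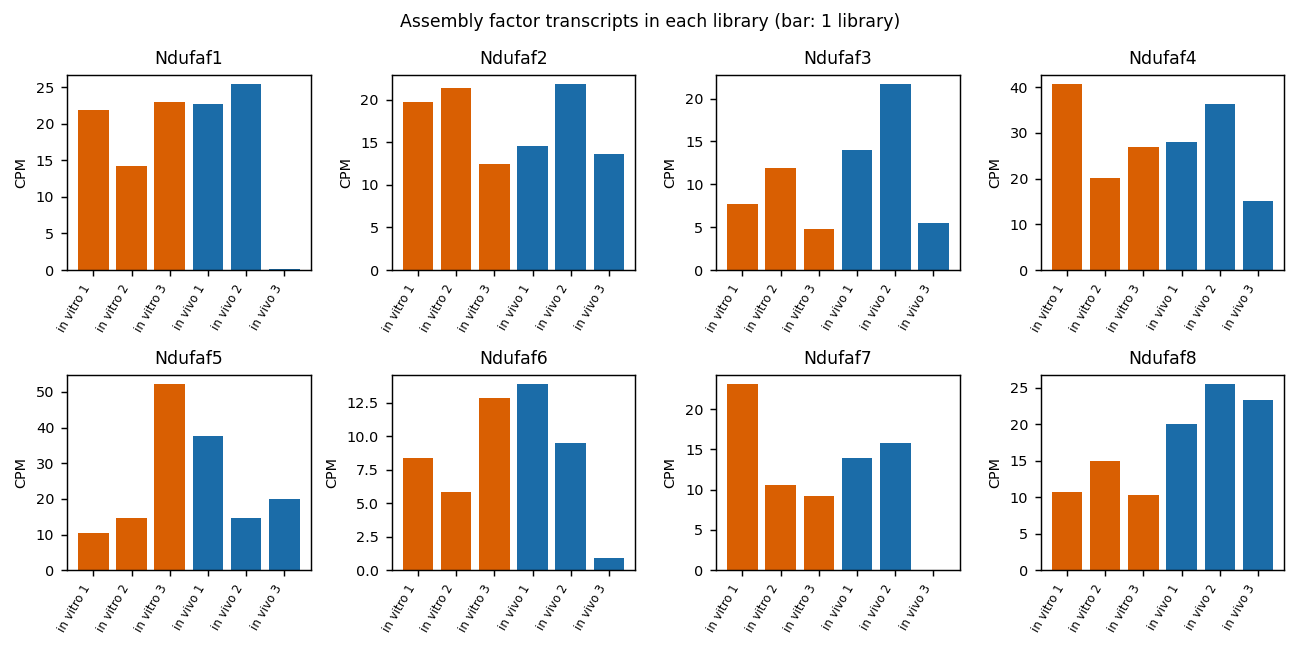
Level in CPM (vertical axis, a separate linear scale in each panel) of the 8 assembly factors, with 1 bar per library, in vitro bars left of in vivo bars. Ndufaf1, Ndufaf6 and Ndufaf7 are at or near 0 in in vivo 3 alone, and Ndufaf8 is the factor whose groups do not overlap.

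Levels can be compared between genes only per length of exon, in CPM per kb over all 6 libraries. On that scale the copies Ndufs6b (357 CPM per kb) and Ndufa11b (338) led, followed by Ndufa4 (285), Ndufb9 (255) and Ndufa2 (226). In the input module Ndufa2 was the highest and Ndufs1 the lowest (20.2), in the quinone module Ndufa5 (112) and Ndufs3 (19.2), in the proximal arm Ndufa3 (165) and Ndufa11 (17.7), and in the distal arm Ndufb9 and Ndufb2 (22.7). The 7 nuclear core subunits ranged from 19.2 CPM per kb for Ndufs3 to 74.9 for Ndufs7. Ndufb9 and Ndufa2, neighbours in this order, were not separated beyond their spread: Ndufb9 had 232 CPM per kb in vitro and 279 in vivo, against 232 and 219 for Ndufa2. Assembly factors ran from Ndufaf8 (35.3) to Ndufaf5 (1.49), the lowest detected member, whose annotated exon length of 16711 bases weighs on its value. Annotated length may include exons that these embryos do not use or fall short of the transcript: the place of Ndufa11b rests on a deposited length of 264 bases, while its GENCODE transcript has 424, over which its level per length would be lower.

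Several members have copies elsewhere in the genome, and in each such family the copy or copies had a higher mean CPM over the 6 libraries than the parent gene. Ndufb4 (chr16:37647602-37654368, 3 exons) held 11.5% of its family's summed CPM, while the copies Ndufb4b (chr19:25033108-25033578) and Ndufb4c (chr15:73809449-73809933), each a lone exon, held 45.2% and 43.3%. Ndufs6 held 33.6% beside Ndufs6b (chr7:81161273-81161746), and Ndufa11 held 34.5% beside Ndufa11b (chr16:22053687-22054353). The same was seen with 3 copies outside the rule: Ndufs5 held 25.2% beside Ndufs5-ps, Ndufab1 held 44.0% beside Ndufab1-ps and Ndufa12 held 30.5% beside Ndufa12-ps.

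The sequences show how far gene and copy can be told apart, which differs between families. The first 90 coding bases are given 5′ to 3′ from the GENCODE M21 transcripts on GRCm38, and capitals mark the 7 bases at which Ndufs6 and Ndufs6b differ in this stretch; Ndufb4 and Ndufb4c do not differ in it.
Ndufb4: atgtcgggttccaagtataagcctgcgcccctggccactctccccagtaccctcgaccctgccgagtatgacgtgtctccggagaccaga
Ndufb4c: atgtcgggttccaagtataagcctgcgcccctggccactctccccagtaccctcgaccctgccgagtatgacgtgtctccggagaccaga
Ndufs6: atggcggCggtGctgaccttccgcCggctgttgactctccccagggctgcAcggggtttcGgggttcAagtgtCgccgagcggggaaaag
Ndufs6b: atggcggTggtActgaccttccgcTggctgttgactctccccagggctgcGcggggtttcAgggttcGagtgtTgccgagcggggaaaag

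Over its whole annotated transcript Ndufb4c matched Ndufb4 at 390 of 390 bases, and all 341 of its 50-base windows occur in Ndufb4. Ndufs6b matched Ndufs6 at 336 of 348 bases (96.55%), with 25.4% of windows shared. Ndufa11b matched Ndufa11 at 94.8% of 424 bases, with 10.4% of windows shared, and Ndufab1-ps matched Ndufab1 at 99.7% of 383 aligned bases, with 67.8% shared. The copies Ndufb4b, Ndufs5-ps and Ndufa12-ps were not aligned to their parent genes. No source used here states how the authors assigned reads that match more than 1 place, so the levels of these genes and copies taken singly are uncertain. This uncertainty is largest where all windows are shared, as in Ndufb4c, and smaller where few are, as in Ndufa11b.

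The sums over gene and copies avoid this split if each read was counted once. Reads counted at more than 1 place would enter a sum more than once. With counts added before the fit, a choice made after seeing the data, the Ndufb4 family had 134, 144 and 182 CPM in vitro and 158, 142 and 112 CPM in vivo. The Ndufs6 family had 257, 296 and 189 CPM in vitro and 246, 244 and 296 CPM in vivo. The Ndufa11 family had 58.1, 158 and 108 CPM in vitro and 164, 186 and 143 CPM in vivo. Ndufa11b by itself had 28.9, 104 and 68.99 CPM in vitro and 110, 129 and 94.7 CPM in vivo, with the low value in in vitro replicate 1 and a log2 fold change of −0.72 ± 0.45 (adjusted p = 0.624), which was −0.35 once in vitro replicate 1 was left out and −1.20 if replicate 2 of that group was left out. None of the 6 family sums passed the edgeR test, with adjusted p from 0.617 (Ndufa12 family) to 0.952 (Ndufs6 family).

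**Figure D5:**
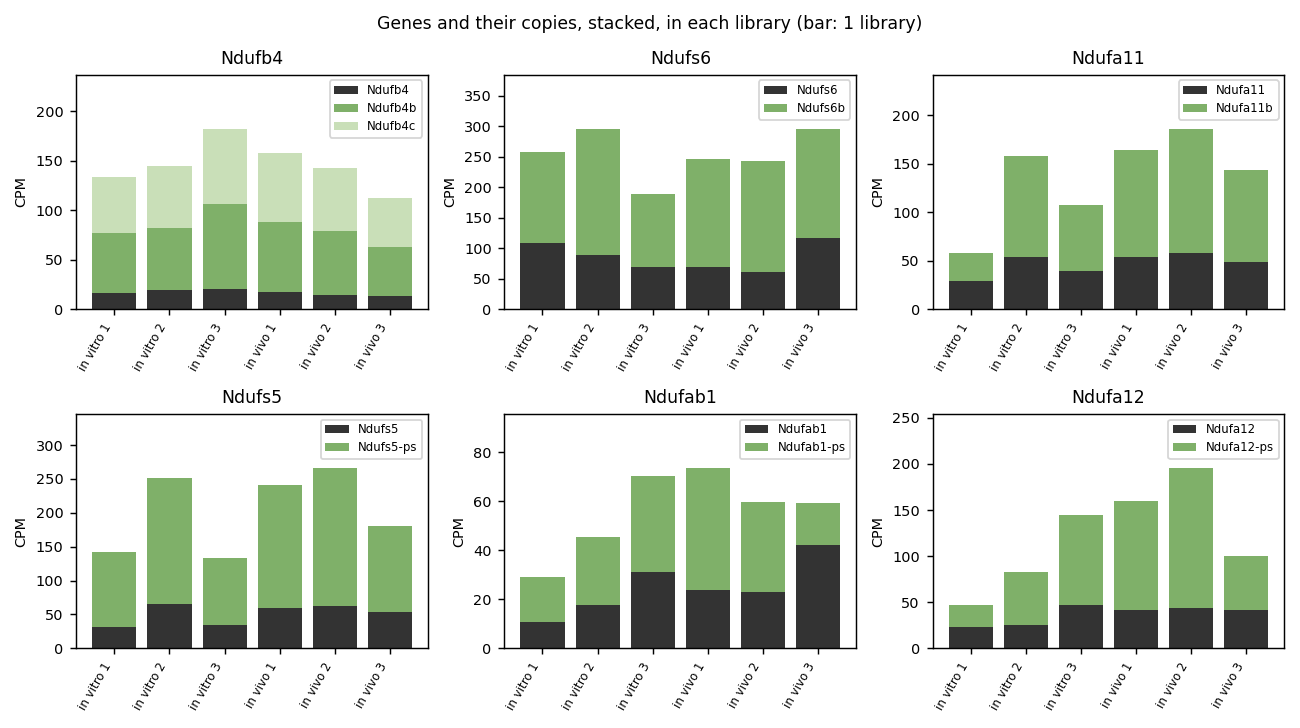
Stacked CPM (vertical axis, a separate linear scale in each panel) of 6 complex I genes (black) and their copies (green) in each library, in vitro bars left of in vivo bars. In the mean over libraries the black part is 11.5 to 44.0% of the stack.

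The subunits that the mitochondrial genome encodes, listed as ND1 to ND6 and ND4L, summed to 34081, 20875 and 33571 CPM in vitro and 23240, 31607 and 54919 CPM in vivo. Of these 7 genes 3 had a log2 fold change above 0 and 4 below, with a median of −0.04, and 0 passed the test. ND4L had 405, 166 and 406 CPM in vitro and 439, 1088 and 1862 CPM in vivo, without overlap (log2 fold change −1.79 ± 0.55, adjusted p = 0.373). Their median within-group SD of 0.722 on the log2 scale was above that of the nuclear subunits.

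Among 15 other assembly helpers in the table, 0 passed the test, 5 fold changes were above 0 and 10 below, and the median was −0.23. Acad9, partner of Ndufaf1, had 54.4, 76.2 and 91.0 CPM in vitro and 56.3, 27.2 and 32.1 CPM in vivo (0.94 ± 0.40, adjusted p = 0.474). In complexes II to V, 0 of 40 genes passed, 17 fold changes were above 0 and 23 below, and the median was −0.13. The groups did not overlap for 9 of these 40 genes, against 19.3% of all genes. Those of smallest p were Atp5c1, a subunit of ATP synthase, with 45.5, 48.9 and 48.6 CPM in vitro and 149, 108 and 80.4 CPM in vivo (−1.24 ± 0.34, adjusted p = 0.341), and Atp5l, another subunit, with 106, 58.9 and 80.8 CPM in vitro and 30.8, 20.7 and 50.3 CPM in vivo (1.27 ± 0.43, adjusted p = 0.402).

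A list of 12 regulators was taken, mostly of respiratory chain genes but also the metal-response factor Mtf1. Of these, 10 were tested, with 7 fold changes above 0 and 3 below, a median of 0.62 and 0 calls. In 4 of the 10 the groups did not overlap, against 19.3% of all genes. Each of the 4 was higher in vitro (background 9.27%). Gabpb1, a subunit of the ETS-family factor GABP, had 110, 162 and 151 CPM in vitro and 83.0, 63.5 and 74.6 CPM in vivo (0.93 ± 0.31, adjusted p = 0.398). Its partner Gabpa, the subunit that binds DNA, named here after its values were seen, had 68.6, 53.6 and 69.1 CPM in vitro and 45.1, 35.1 and 33.1 CPM in vivo (0.76 ± 0.34, adjusted p = 0.489). Ppargc1b, a coactivator of mitochondrial genes, had 15.6, 17.999 and 26.3 CPM in vitro and 5.15, 8.78 and 1.86 CPM in vivo (1.92 ± 0.69, adjusted p = 0.417). In these 3 genes every in vitro library lay above every in vivo library. The remaining gene without overlap was Mtf1 (0.27 ± 0.38, adjusted p = 0.855). It had 31.8, 27.9 and 28.0 CPM in vitro and 25.0, 22.2 and 25.4 CPM in vivo. The zinc-finger factor Yy1 had 85.0, 54.7 and 127 CPM in vitro and 33.1, 35.8 and 64.1 CPM in vivo (1.00 ± 0.43, adjusted p = 0.474), with overlap through in vitro replicate 2. Nrf1, for which a motif was searched next, had 28.9, 36.6 and 26.7 CPM in vitro and 31.0, 21.1 and 48.2 CPM in vivo.

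Promoters were taken from RefSeq (GRCm38.p6), from 250 bases before to 50 after the annotated start, and 42 of the 51 members had an entry. They were searched on both strands for 3 motifs: GCGCATGC for NRF1, CCGGAAG for ETS factors such as GABP, and AAGATGGC for YY1. At least 1 motif was present in 42.9% of the members' promoters, against 14.9% of the 27025 genes with an entry. The YY1 letters were in 8 members (19.0%, against 3.19% of all genes), the NRF1 letters in 5 (11.9% against 3.05%) and the ETS letters in 6 (14.3% against 9.93%). The members' promoters had a median GC content of 59.3%, against 52.7% over all genes, and these shares are descriptions without a test. The YY1 letters lay at or after the annotated start in 8 of 8 members, against 42.2% of the 862 genes that hold them. The windows below show this on the strand of the gene, 5′ to 3′, with the YY1 letters, which themselves hold an ATG, in capitals. In Ndufs6 this ATG opens the coding bases given above, and the other genes were not compared in this way.
Ndufs7 (chr10:80249462-80249491, plus strand): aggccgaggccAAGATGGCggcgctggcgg
Ndufs4 (chr13:114388045-114388074, minus strand): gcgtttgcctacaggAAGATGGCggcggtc
Ndufs6 (chr13:73328433-73328462, minus strand): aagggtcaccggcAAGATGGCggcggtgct
Ndufb8 (chr19:44555393-44555422, minus strand): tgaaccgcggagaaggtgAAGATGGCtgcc
Ndufa9 (chr6:126849097-126849126, minus strand): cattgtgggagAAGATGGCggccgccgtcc
Ndufaf8 (chr11:120098933-120098962, plus strand): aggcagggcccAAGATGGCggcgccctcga

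The NRF1 letters stood further upstream in some promoters, as in Ndufa6 and Ndufa11, at 83 and 60 bases before the start, and close to the start in Ndufa8. Capitals mark the letters or their reverse complement.
Ndufa6 (chr15:82354356-82354385, minus strand): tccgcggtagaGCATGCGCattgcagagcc
Ndufa11 (chr17:56717691-56717720, plus strand): acctgcactgcGCGCATGCgcgcacgcctt
Ndufa8 (chr2:36049328-36049357, minus strand): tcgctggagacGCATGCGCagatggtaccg

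Members with the YY1 letters were found on both sides of 0: Ndufs4 had a log2 fold change of 0.47, Ndufs7 of 0.01 and Ndufaf8 of −0.93. A match in these windows describes the letters present and is not evidence of a bound factor.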

How the data were processed

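The deposited file holds raw read counts for 49993 gene rows in 6 library columns, beside gene coordinates and exon lengths. Total RNA was extracted with a microscale kit and made into libraries with a transposase-based kit, per the labels' protocols. FastQC 0.11.2, DESeq2 and the build GRCm39 are named in the submitters' processing notes; no source used here states the aligner, the counter or whether strand was used. Start and end of 51 of 51 members equal RefSeq genes on GRCm38.p6, so coordinates are given on GRCm38. Ndufa7 is listed on 4 contigs and Ndufs3 on 2, and their lengths were taken from the primary chromosome.

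Libraries were grouped by their titles. The counts as deposited were fitted in edgeR 4.0.16 (R 4.3.3) after its filter on low counts by group (14301 genes), with TMM scaling, robust dispersions and the quasi-likelihood F-test (two-sided, legacy form), Benjamini-Hochberg adjusted over all genes tested. Standard errors and 95% intervals were derived from the F statistic and its degrees of freedom. The common biological coefficient of variation was 0.727. Within-group SDs used log2 CPM with a prior count of 2. Alternatives were DESeq2 1.42.0 and limma 3.58.1 voom, and other scalings, filters, a replicate block, an offset for gene length and each library left out in turn. The fit was also run on simulated counts with known changes, whose outcome is not given here and is not used as support. The intervals reflect the spread between libraries. The floors cover counting error only, since PCR copies cannot be told from molecules.

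Members, roles and lists were chosen with earlier results of these data known, so no list was tested as a set. Described library by library were the nuclear core subunits, up to 6 members of smallest p in each direction with a mean of at least 10 CPM, the extremes per length in each role group, X-linked members, assembly factors and the Ndufa4 family. The remaining members were added. The values of 1 member are not reported here; it stays in the counts, medians and sums. Roles come from general knowledge of the mammalian enzyme. Of the 16 assembly helpers listed, 15 were matched in the table.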

Additional observations from a re-analysis of the deposited data

How the results depend on the processing

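Among complex I genes 0 were called under all 19 alternative settings, while the count over all genes, 0 as reported, became 391 without the filter on low counts, 473 with DESeq2, 102 with limma voom, 3 with edgeR's newer form, and 0 in each fit that left out 1 library; the cause of these differences was not tested. The members' median log2 fold change of 0.04 was −0.35 with library totals alone, where the median gene moved to −0.31, and 0.27 with the offset for gene length, which put 35 members above 0 and 15 below; it was −0.09 to 0.02 when 1 library was left out, and without in vivo replicate 3 18 members were above 0 and 32 below. The log2 ratio of the summed level, −0.05 as reported, was −0.37 with library totals alone and −0.09 to −0.00108 when 1 library was left out. Signs turned for Ndufv1 with the length offset (0.0335), and for Ndufs7 with library totals (−0.36), without the filter (−0.0170), with voom (−0.0778) and in 3 of the fits that left out 1 library (range −0.13 to 0.19). Single genes were followed through the settings only for core subunits and the members of smallest p. The other 13 of these kept their sign under every setting in which they were fitted. Most were picked for a small p in the same data, so their steady sign was largely built in. Their size moved: with the length offset it was −0.02 for Ndufb10, −0.06 for Ndufv2, −0.13 for Ndufs3 and −0.15 for Ndufs8. With library totals it was 0.02 for Ndufb5, 0.03 for Ndufa6 and 0.11 for Ndufs4. Adjusted p over all genes so followed and all settings ran from 0.189 to 0.998. With the replicate block, 0 genes were called and the members' median was 0.03. Deviations of same-numbered libraries correlated at −0.0986, 0.0960 and −0.0443, and those of differently numbered libraries at −0.0903 to 0.116. With 3 libraries a group these values cannot show whether the numbers mark a shared day or litter, and no source used here states it. The sums over copies were chosen after seeing the data and changed no call. With 3 libraries a group, the spread seen here and TMM scaling, 19 of the 50 intervals lie within 2-fold. For the other members a difference of that size is not excluded by the interval.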
